A study of Homo sapiens with 12 samples.

Results

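The DEAD and DEAH box RNA helicases described here are 51 genes whose symbols start with DDX or DHX followed by a number, out of 20293 genes listed in the deposited count tables. The members were taken by symbol. Pseudogenes, DDX12P among them, and symbols with a hyphen were left out, and 2 further genes were set aside by name and are not analysed here, so the list is not the whole family. Of the 51 genes, 35 carry the DDX prefix and 16 the DHX prefix. In HepG2, 48 of 17640 listed genes were members, and DDX43, DDX53 and DDX60L were not listed. In Huh7, 50 of 18434 listed genes were members, and DHX58 was not listed.

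HepG2 and Huh7 are human hepatocellular carcinoma cell lines. Each line was transfected with a non-target siRNA (Ctrl-siRNA) or with an siRNA against UBL5 (UBL5 siRNA, the knockdown or KD group) with lipofectamine RNAiMAX, and poly(A) RNA was sequenced from 3 libraries per group, 12 in all. The labels give the time as 52 h, and other descriptions of the study give it differently. UBL5 is a small ubiquitin-like protein that binds spliceosome components, and the comparison asks how the helicase genes respond when it is depleted. All groups received an siRNA, UBL5 was targeted by a single siRNA treatment, and whether the libraries of a group stem from separate transfections is not given in the sources used here. The p-values thus cover only library-to-library spread, part of which may be technical.

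RNA helicases of the DEAD and DEAH box families use ATP to open short RNA duplexes or to strip proteins from RNA. They are named after motif II of the helicase core, the acidic stretch that takes part in ATP hydrolysis. In the nucleus they drive many rearrangements of the spliceosome and many steps of ribosome assembly, and in the cytoplasm they act in export, translation and the sensing of viral RNA. Several work only with a protein cofactor that switches their ATPase on.

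Motif II was looked up in the coding sequence of the canonical transcript of each gene (GENCODE, GRCh38), as 12 bases coding for 4 residues downstream of a Walker A motif, and it was found in 46 of 51 genes. No match was found for DDX1, DDX11, DDX60, DDX60L and DHX32 with this pattern. Each line below gives 30 coding bases, 5′ to 3′ on the coding strand, with the 12 bases of motif II in capitals. The first group are spliceosome helicases, shown because most of them rose in both lines, with DEAD or DECD in motif II of the DDX proteins and DEAH in the DHX proteins.
DDX23: gtggttctgGATGAGGCAGATaggatgatt
DDX46: gttgttttaGATGAAGCAGACagaatgttt
DDX39A: tttgtgctgGACGAGTGTGACaagatgctg
DDX39B: tttattttgGATGAATGTGATaagatgctt
DHX15: ataattcttGATGAGGCTCATgagaggaca
DHX38: atcatcatgGACGAGGCCCACgagcgctcc
DHX8: atcatgttgGACGAGGCACATgagaggaca
The second group are pairs of close paralogs, shown because the genes of a pair parted after UBL5 siRNA in HepG2, in Huh7 or in both. DDX19A and DDX19B parted in both lines, DDX5 and DDX17 in HepG2, and DDX21 and DDX50 in Huh7. DDX39A and DDX39B, also paralogs, stand in the first group.
DDX19A: tttgttctgGATGAGGCTGATgtcatgata
DDX19B: tttgttctgGATGAGGCTGATgtcatgata
DDX5: cttgtccttGATGAAGCAGATagaatgctt
DDX17: cttgtattgGACGAAGCTGACagaatgctt
DDX21: gttgtcctgGATGAAGTGGACcagatgttg
DDX50: gttgtgcttGATGAAGTGGATcagatgtta
DDX19A and DDX19B had 0 differences within these 30 bases and 95.3% identity over 1434 aligned coding bases. DDX39A and DDX39B had 7 differences and 80% identity, DDX5 and DDX17 had 6 differences and 70.2%, and DDX21 and DDX50 had 4 differences and 71.2%. Across all members, motif II read DEAD in 25 genes, DEAH in 8, another DExH in 8 and another DExD in 5.

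The libraries held 19469574 to 29744471 counts. UBL5 fell from 58.2 ± 2.51 to 4.66 ± 2.06 CPM (counts scaled to a common library size of 1000000 by TMM, mean ± SD, n = 3) in HepG2 and from 68.6 ± 1.91 to 6.31 ± 0.452 CPM in Huh7, and the groups did not overlap in either line. All 10 hepatocyte markers were listed in both lines. Of 12 endothelial, fibroblast and leukocyte markers, VWF, PTPRC, CD3E, CD68 and HBB were listed in neither line, and the 12 summed to 11.6 to 20.2 CPM in Ctrl-siRNA and 20.1 to 37.8 CPM in UBL5 siRNA libraries of HepG2, and to 6.52 to 8.6 and 13.9 to 25.4 CPM in Huh7; their part in the results was not tested. One HepG2 library, Ctrl-siRNA 3, had 1773 listed genes at 0 against 159 to 233 in the others of that line. The column names of both HepG2 libraries numbered 3 lack a suffix that all the others carry. In HepG2 the chi-square per degree of freedom between libraries 1 and 2 was 9.67 in Ctrl-siRNA and 14.2 in UBL5 siRNA. Pairs with library 3 gave 24.2 and 33.7 in Ctrl-siRNA and 16.5 and 26.1 in UBL5 siRNA. The part of these libraries in the spread of HepG2 was not tested. The biological coefficient of variation was 0.189 in HepG2 and 0.0663 in Huh7; a given change was therefore easier to call in Huh7.

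The helicase genes spanned a wide range of levels in the Ctrl-siRNA libraries. Per kilobase of exon, DDX21 and DDX5 stood highest in HepG2 at 70 CPM per kb (range 66.8 to 73.6) and 68.3 CPM per kb (65.7 to 71), and their ranges overlapped. DHX9 followed at 53.5 CPM per kb, ahead of DDX17 at 44.5 and DDX56 at 39.9 CPM per kb, with no overlap between these neighbors. In Huh7 the order of the same scale was DDX17 at 56.6 CPM per kb (55.5 to 58.1), DHX9 at 51 (48.3 to 54.4), DDX5 at 46.9 (44.9 to 48.2), DDX41 at 44.5 (40.4 to 49.7) and DDX21 at 39.6 (38.5 to 41.5). DDX17 stood clear of DHX9, whereas DDX5 and DDX41 overlapped and DDX41 overlapped DDX21. The lowest levels were those of DDX60, at 0.0166 CPM per kb in HepG2 and 0.0632 in Huh7, and next lowest were DDX47 in HepG2, at 0.253 CPM per kb, and DDX53 in Huh7, at 0.126 CPM per kb. DDX47 overlaps another annotated gene on its own strand, and whether reads in the overlap were counted is not given in the sources used here, so its level may be too low.

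**Figure D1:**
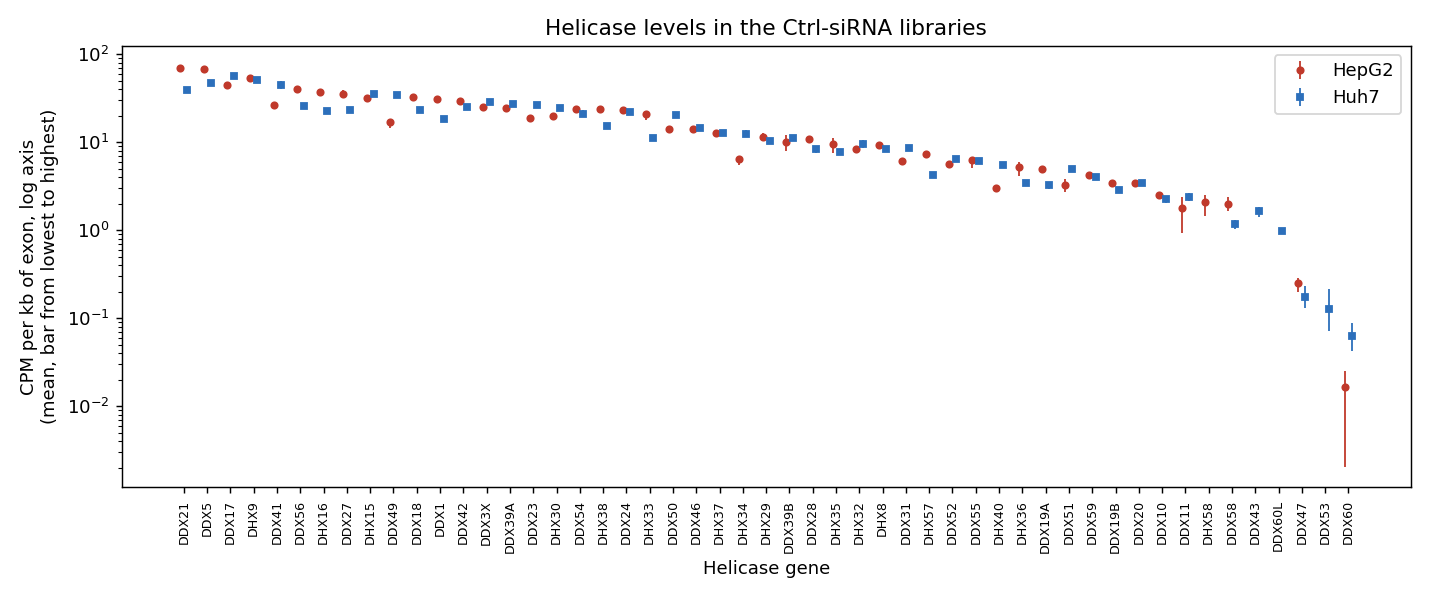
Levels of the helicase genes in the Ctrl-siRNA libraries, in CPM per kb of exon on a log axis, ordered by the higher of the lines; points are means of 3 libraries and bars run from the lowest to the highest library. DDX21, DDX5, DDX17 and DHX9 lie at the top in the plot and DDX60 at the bottom.

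Between the Ctrl-siRNA groups, 29 of 47 helicase genes tested in the joint fit differed between the lines (61.7%). This share was close to the 63.7% of all 15668 genes and below the 71.9% of protein-coding genes. 13 were higher in Huh7 and 16 lower, against 32% and 31.7% of all genes in these directions. DDX49, a nucleolar helicase, stood 1.02 ± 0.095 log2 units (estimate ± SE) higher in Huh7, and DHX34, a factor of nonsense-mediated decay, 0.96 ± 0.12 higher. DHX33 stood at -0.90 ± 0.087 and DDX21 at -0.82 ± 0.071, both lower in Huh7. The median difference over the 47 genes was -0.069, and it was 0.051 when libraries were scaled by total counts only, a scaling that moved the median of all genes from 0.024 to 0.143.

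UBL5 siRNA was followed by changes in most helicase genes tested, more of them up than down in both lines. In HepG2, 17 rose, 9 fell and 21 did not pass the test among 47 tested, and 55.3% were called against 36.7% of all 15755 genes tested (16.5% of all genes rose and 20.1% fell). In Huh7, 34 rose, 8 fell and 8 did not pass among 50 tested, and 84% were called against 71.3% of all 16965 genes (34.9% rose and 36.4% fell). The median log2 fold change over the members was 0.058 in HepG2 and 0.40 in Huh7, beside 0.011 and -0.0084 over all genes tested. Most members are expressed well above the filter, and among protein-coding genes 43% were called in HepG2 and 76.1% in Huh7. DDX60 was not tested in HepG2, where its highest library reached 0.421 CPM. The values are relative to the counts of each library, so a change in the total RNA of the cells would not show in them. Because RNA came from whole cultures, a change in every cell and a larger change in some of the cells cannot be told apart.

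The summed level of all members was 5938 to 6103 CPM in Ctrl-siRNA and 6456 to 6615 CPM in UBL5 siRNA libraries of HepG2. In Huh7 it was 5727 to 5884 CPM and 7825 to 8203 CPM. The groups did not overlap in either line, and the gap was wider in Huh7. Taken gene by gene, every KD library lay above every control library for 17 of 47 members in HepG2 (26.1% of all genes tested) and below for 11 (26.9%), and in Huh7 above for 35 of 50 (35.9%) and below for 9 (38%). The exact permutation test over 3 against 3 libraries cannot go below 0.1, so no p is given for these sums.

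Of 46 members tested in both lines, 17 rose in both (37%) and 4 fell in both (8.7%), against 14.5% and 16.4% of all 14518 genes tested in both. Calls went in opposite directions for DDX18 alone (2.17%, against 2.27% of all genes). The HepG2 call of DDX18 was lost in 8 of 13 alternatives. With the replicate number as a block, DDX17 and DDX28 also had opposite calls. A further 17 were called in Huh7 and not in HepG2 (37%, against 38.5%), and DDX17, DDX27 and DDX42 were called in HepG2 and not in Huh7 (6.52%, against 5.02%). DHX29, DDX1, DDX58 and DDX31 were called in neither line (8.7%, against 23.3%). The 17 genes that rose in both lines made up 100% of those that rose in HepG2 and 50% of the 34 that rose in Huh7.

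**Figure D2:**
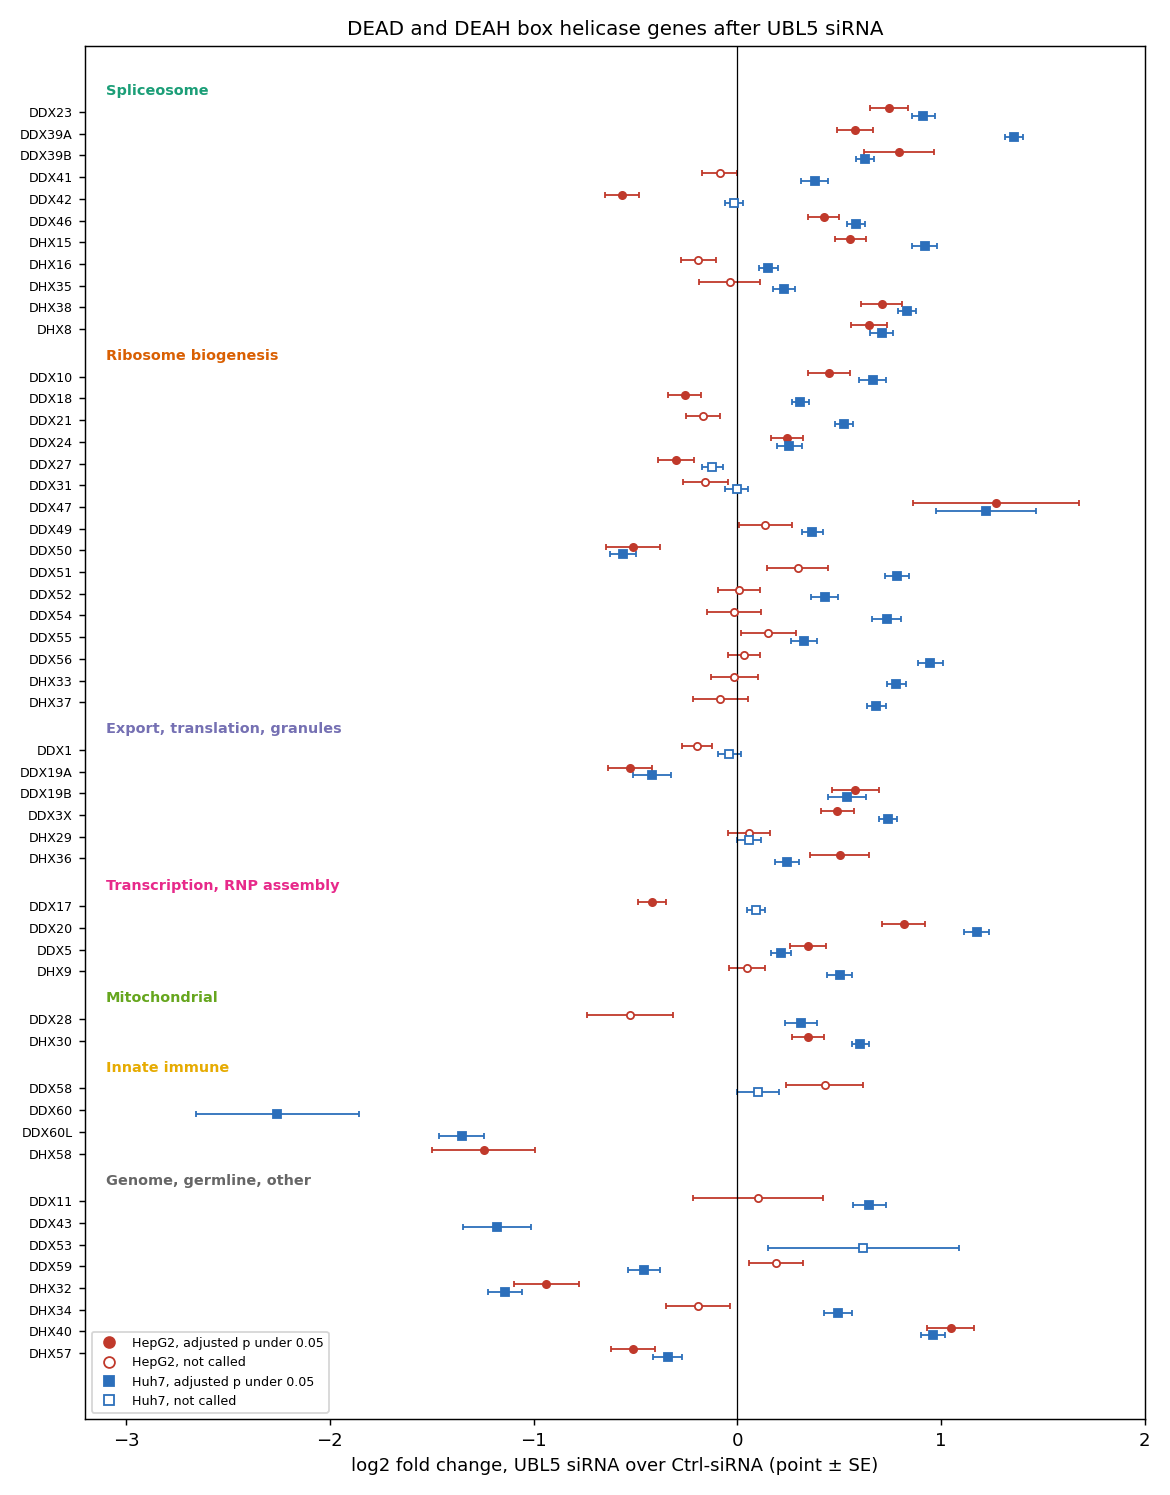
Log2 fold change of each helicase gene, UBL5 siRNA over Ctrl-siRNA, with SE, ordered by role; red circles are HepG2, blue squares Huh7, filled symbols have an adjusted p under 0.05. In the spliceosome group 10 of 11 blue squares are filled to the right of 0, and DDX19A and DDX19B lie on opposite sides of 0 in both lines.

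Most spliceosome helicases among the DDX and DHX members rose in both lines. SNRNP200 and AQR, spliceosome helicases outside these symbols, did not rise in either line and are given further below. In HepG2, 7 of 11 rose (DDX23, DDX39A, DDX39B, DDX46, DHX8, DHX15 and DHX38), DDX42 fell, and 3 did not pass the test. Of all genes tested there, 16.5% rose and 20.1% fell. In Huh7, 10 of 11 rose and DDX42 did not pass, where 34.9% of all genes rose and 36.4% fell. Their median log2 fold change was 0.56 in HepG2 and 0.63 in Huh7. Each of the 7 that rose in HepG2 also rose in Huh7.

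DDX23, the PRP28 ortholog that releases U1 from the 5′ splice site (chromosome 12, 48829756 to 48852842, GRCh38), stood at 141, 141 and 120.5 CPM in the Ctrl-siRNA libraries of HepG2 and at 213, 232 and 230.2 CPM after UBL5 siRNA. In Huh7 it stood at 210.4, 194 and 188 CPM and at 385, 379.6 and 353 CPM. Every KD library lay above every control library of its line. The log2 fold change was 0.74 ± 0.092 (adjusted p = 0.000517) in HepG2 and, in Huh7, 0.91 ± 0.054 (adjusted p = 4.7e-08), here and below given as estimate ± SE from the quasi-likelihood test of edgeR.

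DHX15, the PRP43 ortholog that takes spent spliceosomes apart (chromosome 4, 24517441 to 24584554), went from 244, 248 and 259 CPM to 349.7, 371 and 384 CPM in HepG2. The Huh7 values were 320.4, 287 and 285 CPM and 596, 568 and 523 CPM. It rose in both lines, by 0.56 ± 0.074 (adjusted p = 0.000747) and 0.92 ± 0.061 (adjusted p = 1.16e-07) on the log2 scale, and the groups did not overlap.

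DHX8, the PRP22 ortholog that frees the spliced mRNA, stood at 101, 102 and 86.7 CPM in control and 148, 151 and 154 CPM in KD libraries of HepG2. Its Huh7 values were 98.3, 93.7 and 86.7 and 159, 147 and 151 CPM. It rose by 0.65 ± 0.09 (adjusted p = 0.000894) and 0.71 ± 0.056 (adjusted p = 4.53e-07), with no overlap of the groups in either line.

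DHX38, the PRP16 ortholog of the second catalytic step, rose by 0.71 and 0.83 (log2, HepG2 and Huh7), and DDX46, the PRP5 ortholog that helps U2 bind the branch site, by 0.42 and 0.58. DHX16, the PRP2 ortholog of catalytic activation, did not pass in HepG2 at -0.19 and rose slightly in Huh7 at 0.15 ± 0.046 (adjusted p = 0.012). DDX41, found in catalytic spliceosomes, gave -0.086 in HepG2 without passing and rose by 0.38 in Huh7. DHX35, of the late spliceosome, did not pass in HepG2 and rose by 0.23 in Huh7. The Huh7 rise of DHX16 was lost with total-count scaling and, like that of DHX35, in a fit over all 12 libraries.

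DDX42, a helicase of the U2 snRNP, went against the group. It fell from a mean of 242 ± 13.8 to 163 ± 10.2 CPM in HepG2, -0.57 ± 0.085 (adjusted p = 0.00124) on the log2 scale, and stood at 221 ± 6.72 and 219 ± 5.16 CPM in Huh7. The difference between the lines was 0.52 ± 0.092 (adjusted p = 0.00158).

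Ribosome biogenesis helicases rose mainly in Huh7. In HepG2, 3 of 16 rose (DDX10, DDX24 and DDX47), 3 fell (DDX18, DDX27 and DDX50) and 10 did not pass, with a median log2 fold change of -0.0019. Of all genes tested there, 16.5% rose and 20.1% fell, and both HepG2 counts lie near these shares. In Huh7, 13 of 16 rose, DDX50 fell, and DDX27 and DDX31 did not pass, with a median of 0.48. Of all genes tested in Huh7, 34.9% rose and 36.4% fell. The interaction test called 8 of the 16, all with the larger response in Huh7, beside 11.7% of all genes called in that direction. The 3 HepG2 calls of a rise were 1 or 2 whenever 1 library was left out.

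DDX56, a nucleolar helicase of the large subunit (chromosome 7, 44565804 to 44575051), stood at 142, 146 and 133 CPM in control and 139, 150.0 and 142 CPM in KD libraries of HepG2. In Huh7 the values were 97.9, 99.7 and 90.4 CPM and 199, 183 and 174 CPM. The HepG2 groups overlapped, whereas the Huh7 groups did not and the gene rose 1.93-fold there, log2 0.95 ± 0.059 (adjusted p = 6.78e-08). The difference between the responses, 0.89 ± 0.10 (adjusted p = 7.24e-05), had the smallest adjusted p among the members.

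DDX18, needed for large subunit assembly, stood at 250.4, 233 and 254 CPM in control and 219.9, 198 and 199.9 CPM in KD libraries of HepG2. The Huh7 values were 185, 187 and 182 CPM and 231, 227 and 230.2 CPM. It fell in HepG2, -0.26 ± 0.081 (adjusted p = 0.0355), and rose in Huh7, 0.31 ± 0.041 (adjusted p = 3.16e-05), and the lines differed by 0.54 ± 0.086 (adjusted p = 0.000795). The HepG2 call was lost in 8 of 13 alternatives, among them the omission of any HepG2 library but UBL5 siRNA 1, with adjusted p between 0.0036 and 0.194, whereas the call of the difference was kept in all alternatives run.

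DDX10, a helicase of the small subunit pathway, went from 45.8, 42.9 and 41.8 CPM to 57.8, 55 and 65.6 CPM in HepG2 and from 43.7, 44.1 and 38.2 CPM to 68.6, 68.1 and 63.5 CPM in Huh7. It rose in both lines with no overlap, by 0.45 ± 0.10 (adjusted p = 0.00903) and 0.67 ± 0.067 (adjusted p = 3.42e-06). DDX24 rose by 0.25 in HepG2 and 0.26 in Huh7, and the HepG2 call was lost in 8 of 13 alternatives (adjusted p 0.00284 to 0.103). DDX47 rose from 1.34, 0.963 and 1.36 to 2.12, 2.32 and 4.46 CPM in HepG2 and from 0.853, 0.668 and 1.2 to 1.77, 2.34 and 2.18 CPM in Huh7. These are the lowest levels among the ribosome biogenesis helicases, and 99.7% of the 50-base words of its transcript also occur in APOLD1, an annotated gene on the same strand that overlaps 36.5% of its exon bases. Its HepG2 call did not hold with the replicate number as a block (adjusted p = 0.0521) or without any 1 of 4 libraries (adjusted p up to 0.199).

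DHX33, which acts in rRNA transcription, rose by 0.78 in Huh7, DHX37, which releases U3 from the small subunit processome, by 0.68, DDX54 by 0.73, DDX51 by 0.79 and DDX52 by 0.43. Their HepG2 values lay between -0.083 (DHX37) and 0.30 (DDX51), none past the test. The interaction was called for these 5, from 0.39 for DDX52 to 0.76 for DHX33, but the calls for DDX51 and DDX52 were lost in 12 and 8 of 17 alternatives (adjusted p up to 0.104 and 0.0973). DDX49 and DDX55 rose in Huh7 by 0.37 and 0.33, and their interaction was not called. DDX27, which acts in the maturation of the rRNA precursor, fell in HepG2, -0.30 ± 0.087 (adjusted p = 0.0248), and gave -0.12 ± 0.052 (adjusted p = 0.0527) in Huh7, with an adjusted p of 0.0207 under the replicate block. Its HepG2 call was lost in 4 of 13 alternatives, each without 1 library, with adjusted p up to 0.154.

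**Figure D3:**
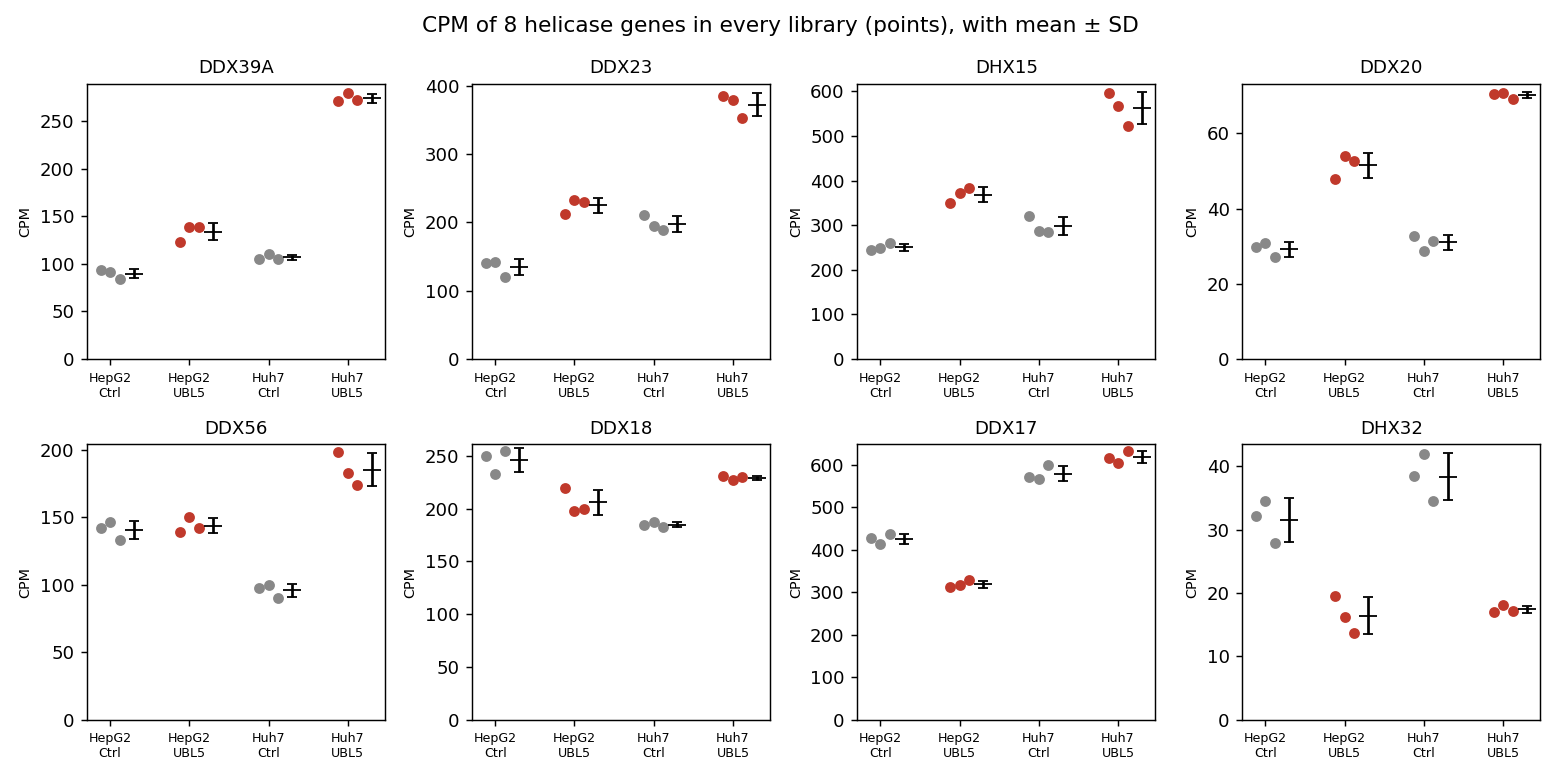
CPM of 8 helicase genes in each of the 12 libraries (linear axis from 0), grey for Ctrl-siRNA and red for UBL5 siRNA, with mean ± SD at the right of each group. DDX39A, DDX23, DHX15 and DDX20 are higher in every KD library of both lines, DDX56 in Huh7 only, DDX18 moves in opposite directions, DDX17 is lower in HepG2 KD libraries, and DHX32 is lower in the KD libraries of both lines.

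Helicases of mRNA export, translation and RNA granules moved gene by gene. In both lines 3 of 6 rose (DDX3X, DDX19B and DHX36), DDX19A fell, and DDX1 and DHX29 did not pass the test. Of all genes tested, 16.5% rose and 20.1% fell in HepG2, and 34.9% rose and 36.4% fell in Huh7. DDX3X, which helps ribosomes load on structured 5′ leaders, stood at 371, 379.7 and 379.6 CPM in control and 538, 567 and 484 CPM in KD libraries of HepG2. In Huh7 it stood at 474, 471 and 443 CPM and 785, 771 and 763 CPM. It rose by 0.49 ± 0.08 (adjusted p = 0.00185) and 0.74 ± 0.044 (adjusted p = 4.92e-08), with no overlap. DHX36, which unwinds G-quadruplexes, rose by 0.50 in HepG2 and 0.24 in Huh7. The HepG2 call of DHX36 was lost without Ctrl-siRNA 2 or UBL5 siRNA 3 (adjusted p up to 0.0661), and the Huh7 call in a fit over all 12 libraries (adjusted p = 0.127). DDX1, of the tRNA ligase complex, gave -0.20 in HepG2 (adjusted p = 0.0657; 0.0351 with the replicate block) with no overlap of the groups.

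DDX19A and DDX19B, neighbors on chromosome 16 (70346861 to 70373383 and 70289663 to 70335305) that code for forms of the nuclear pore helicase DBP5, went in opposite directions in both lines. DDX19A stood at 40.8, 36.6 and 35.4 CPM in control and 27.2, 25.3 and 25.8 CPM in KD libraries of HepG2, and at 28.4, 25.4 and 23.9 and 21.2, 19.6 and 17.5 CPM in Huh7. DDX19B stood at 14.9, 15.4 and 14.3 and 22.5, 21.7 and 22.5 CPM in HepG2, and at 12.9, 12.9 and 13.3 and 17.2, 21.2 and 18.3 CPM in Huh7. DDX19A fell, at -0.53 ± 0.11 (adjusted p = 0.00526) in the HepG2 cells and -0.42 ± 0.091 (adjusted p = 0.00149) in Huh7 on the log2 scale, and DDX19B rose by 0.58 ± 0.11 (adjusted p = 0.00438) and 0.54 ± 0.092 (adjusted p = 0.000247). The log2 ratio of DDX19A over DDX19B, with 0.5 CPM added to each, dropped from 1.43, 1.22 and 1.28 to 0.27, 0.22 and 0.19 in HepG2 and from 1.11, 0.95 and 0.82 to 0.29, -0.11 and -0.062 in Huh7, a shift of -1.08 and -0.92 (two-sided exact permutation p = 0.1 in each line, the smallest that 3 against 3 allows). An annotated read-through transcript overlaps 27% of the exon bases of DDX19A and 20.9% of those of DDX19B and is not listed in either line. Of the 50-base words of DDX19A, 63.8% occur in other genes, and 24.6% occur in DDX19B. For DDX19B, 42.2% of these words occur in other genes. The levels of both genes, and part of the split of reads between them, are therefore uncertain.

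The other paralog pairs behaved differently in the lines. DDX39A, an export and splicing helicase (chromosome 19, 14408798 to 14419383), stood at 93.6, 91.5 and 84.1 CPM in control and 123, 139 and 139 CPM in KD libraries of HepG2, and at 105, 110.1 and 105 and 271, 279.7 and 272 CPM in Huh7. It rose 1.49-fold and 2.57-fold, log2 0.58 ± 0.09 (adjusted p = 0.00147) and 1.36 ± 0.044 (adjusted p = 8.04e-10), and the lines differed by 0.75 ± 0.092 (adjusted p = 0.000148). DDX39B, known as UAP56, stood at 82.4, 68.7 and 53 and 98.6, 122 and 133 CPM in HepG2 and at 79.2, 78.1 and 81 and 119.8, 126 and 122 CPM in Huh7, and rose by 0.79 ± 0.17 (adjusted p = 0.00671) and 0.63 ± 0.045 (adjusted p = 2.21e-07). The log2 ratio of DDX39A over DDX39B shifted by 0.73 in Huh7 (exact p = 0.1, no overlap) and by -0.23 in HepG2 (exact p = 0.3, groups overlapping). All 50-base words of DDX39B (100%) also occur in an annotated read-through gene with ATP6V1G2 that is not listed, so how many of its reads were counted is uncertain.

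DDX5 and DDX17, coregulators of transcription and miRNA processing, parted in HepG2. DDX5 stood at 638, 588 and 603 CPM in control and 718, 747 and 860.5 CPM in KD libraries of HepG2, and at 456, 450.3 and 432 and 539.6, 527 and 487 CPM in Huh7, and rose by 0.35 ± 0.086 (adjusted p = 0.0135) and 0.22 ± 0.05 (adjusted p = 0.00213). Without Ctrl-siRNA 2 the HepG2 adjusted p of DDX5 was 0.0561. DDX17 stood at 427, 413 and 437 and 313, 316 and 328 CPM in HepG2 and at 571, 565 and 599 and 616, 604 and 631 CPM in Huh7. It fell in HepG2, -0.42 ± 0.07 (adjusted p = 0.0021), and did not pass in Huh7, 0.093 ± 0.044 (adjusted p = 0.0752), where its adjusted p was 0.0293 under the replicate block, and the lines differed by 0.48 ± 0.076 (adjusted p = 0.000761). Their log2 ratio shifted by 0.76 in HepG2 (exact p = 0.1) and by 0.12 in Huh7 (exact p = 0.3).

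DDX21 and DDX50, nucleolar paralogs that lie side by side on chromosome 10, parted in Huh7. DDX21, which acts in rRNA transcription and processing, stood at 624, 595 and 647 CPM in control and 523, 530.2 and 609 CPM in KD libraries of HepG2, where the groups overlapped, and at 391, 363 and 371 and 547, 539.9 and 532 CPM in Huh7, where it rose by 0.53 ± 0.044 (adjusted p = 8.04e-07). The difference between the lines was 0.66 ± 0.10 (adjusted p = 0.000541). DDX50 stood at 36.7, 36 and 36.1 and 30.2, 22.8 and 23.2 CPM in HepG2 and at 52.1, 60.1 and 54.6 and 36.8, 38.4 and 37.9 CPM in Huh7, and fell in both, at -0.51 ± 0.13 (adjusted p = 0.0155) and -0.56 ± 0.065 (adjusted p = 1.19e-05). The HepG2 call of DDX50 was lost without UBL5 siRNA 2 or 3 (adjusted p up to 0.0868). The log2 ratio of DDX21 over DDX50 shifted by 1.08 in Huh7 (exact p = 0.1) and by 0.35 in HepG2 (exact p = 0.2).

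**Figure D4:**
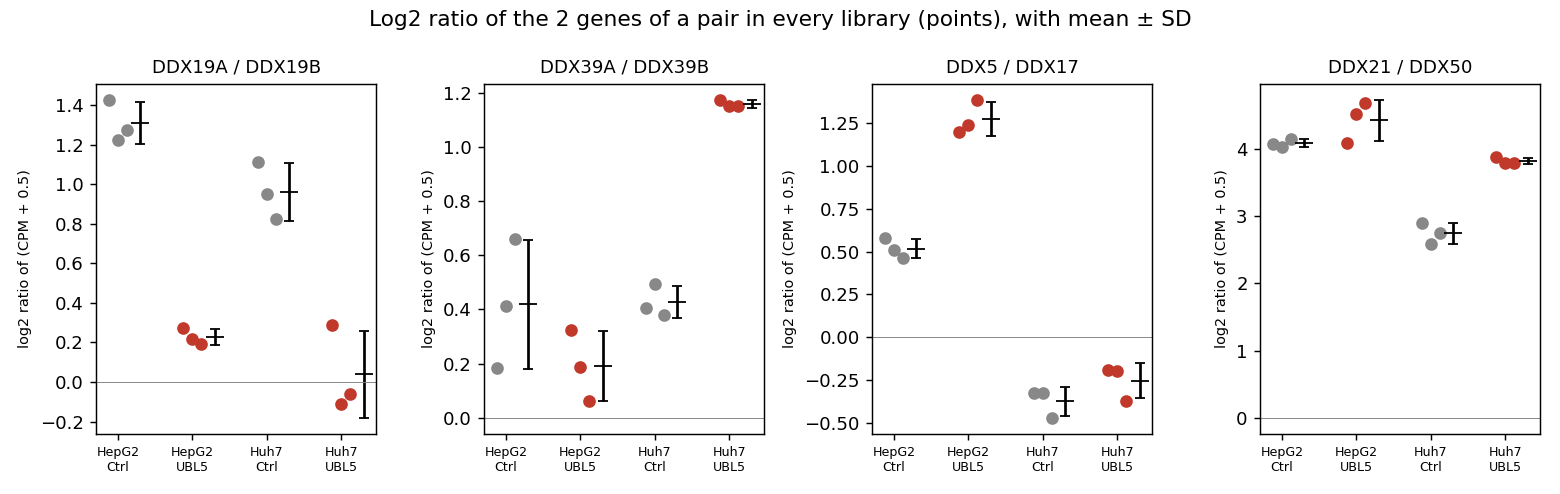
Log2 ratio of the genes of 4 paralog pairs (CPM + 0.5) in each library, grey for Ctrl-siRNA and red for UBL5 siRNA, with mean ± SD; the axes differ between panels and do not all start at 0. The DDX19A over DDX19B ratio is lower in every KD library of both lines, DDX5 over DDX17 parts the groups in HepG2, and DDX39A over DDX39B and DDX21 over DDX50 part them in Huh7.

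The remaining helicases of transcription and RNP assembly were DDX20 and DHX9. DDX20, known as GEMIN3, belongs to the SMN complex that loads Sm rings on snRNAs. It stood at 29.8, 30.8 and 27 CPM in control and 47.8, 54 and 52.6 CPM in KD libraries of HepG2 and at 32.8, 28.8 and 31.5 and 70.5, 70.7 and 69.2 CPM in Huh7. It rose 1.76-fold and 2.26-fold, log2 0.82 ± 0.10 (adjusted p = 0.0006) and 1.18 ± 0.061 (adjusted p = 1.8e-08). The difference between the lines was 0.33 ± 0.11 (adjusted p = 0.054), and its adjusted p was 0.0422 with the replicate block. DHX9, which opens long duplexes such as inverted Alu repeats, gave 0.047 ± 0.09 (adjusted p = 0.717) in HepG2 and rose by 0.50 ± 0.062 (adjusted p = 1.88e-05) in Huh7.

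Both mitochondrial helicases rose in Huh7 and 1 of them in HepG2, lines in which 34.9% and 16.5% of all genes rose. DHX30, of the mitochondrial RNA granule, stood at 150.1, 151 and 147 and 179, 204 and 186 CPM (Ctrl-siRNA and UBL5 siRNA) in HepG2 and at 191, 190.0 and 198 and 295, 291 and 294 CPM in Huh7, and rose by 0.35 ± 0.081 (adjusted p = 0.00987) and 0.60 ± 0.042 (adjusted p = 1.54e-07). DDX28, which takes part in mitoribosome assembly, stood at 26.3, 24.7 and 22 and 22.8, 15.4 and 12.3 CPM in HepG2 and at 18, 20.5 and 21.5 and 25.1, 24.9 and 24.3 CPM in Huh7. It rose by 0.31 ± 0.08 (adjusted p = 0.00398) in Huh7 and gave -0.53 ± 0.21 (adjusted p = 0.0824) in HepG2, with an adjusted p of 0.0202 under the replicate block, and the lines differed by 0.81 ± 0.24 (adjusted p = 0.0266). The Huh7 call of DDX28 was lost in a fit over all 12 libraries (adjusted p = 0.163). Over the same libraries mitochondrially encoded genes took 1.91 to 2.35% of counts in control and 2.75 to 3.61% in KD libraries of HepG2, and 2.46 to 3.3% and 2.66 to 3.72% in Huh7; their part in these values was not tested.

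The innate immune helicases were low. In HepG2 1 of 2 tested fell, and in Huh7 2 of 3 fell, beside 20.1% and 36.4% of all genes. No rise was called without a replicate block. DDX58 alone was tested in both lines, so no fall could be compared between them. DDX58, listed under this older symbol of RIGI and a sensor of viral RNA, stood at 16.4, 18.5 and 23.4 and 21.9, 24.2 and 32.5 CPM in HepG2 and at 13.6, 11 and 12.8 and 13.8, 12.4 and 14.1 CPM in Huh7, with the groups overlapping in both. It gave 0.43 ± 0.19 (adjusted p = 0.106) and 0.10 ± 0.10 (adjusted p = 0.383). The block by replicate number lowered the HepG2 adjusted p of DDX58 to 0.0135, a called rise. An annotated gene overlaps 43.2% of its exon bases on the same strand, and 96.6% of its 50-base words occur in other genes. How many of the DDX58 reads were counted is therefore uncertain, and so are its level and response. DHX58, the regulator LGP2, fell in HepG2 from 9.27, 8.75 and 5.22 to 3.44, 3.27 and 3.06 CPM, -1.25 ± 0.25 (adjusted p = 0.00542). DDX60, an interferon-induced antiviral factor, fell in Huh7 from 0.746, 1.56 and 1.05 to 0.197, 0.249 and 0.232 CPM, -2.26 ± 0.40 (adjusted p = 0.000331), and stood at 0.421, 0.377 and 0.0332 and 0.176, 0.0414 and 0.0519 CPM in HepG2. Its paralog DDX60L fell in Huh7 from 12, 11.1 and 13.3 to 4.93, 4.73 and 4.55 CPM, -1.35 ± 0.11 (adjusted p = 6.53e-07), and the log2 ratio of the pair shifted by 0.14 (exact p = 0.6).

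The last group joins helicases of genome maintenance, germline genes and members with no settled function. In HepG2, 1 of 6 rose and 2 fell, and in Huh7, 3 of 8 rose and 4 fell. Of all genes tested, 16.5% rose and 20.1% fell in HepG2, and 34.9% rose and 36.4% fell in Huh7. The counts of rises lie near these shares. DHX40 stood at 18.1, 17.6 and 15.9 and 36.3, 33.1 and 37.4 CPM in HepG2 and at 32.5, 34.9 and 32 and 65.8, 65.6 and 62.2 CPM in Huh7, and rose by 1.05 ± 0.11 (adjusted p = 0.000309) and 0.96 ± 0.059 (adjusted p = 5.87e-08). For this gene 25.1% of its 50-base words occur in other genes, chiefly its pseudogene. DHX32 (chromosome 10, 125836337 to 125896436), in which no motif II was found, stood at 32.2, 34.6 and 27.8 and 19.5, 16.2 and 13.6 CPM in HepG2 and at 38.5, 42 and 34.6 and 16.9, 18.1 and 17.2 CPM in Huh7. It fell, at -0.94 ± 0.16 (adjusted p = 0.00216) in the HepG2 cells and -1.14 ± 0.081 (adjusted p = 1.98e-07) in Huh7 on the log2 scale, and every KD library lay below every control. DHX57 stood at 58.1, 54.6 and 55.1 and 44.5, 36.9 and 36.4 CPM in HepG2 and at 36, 34.4 and 32.4 and 29.1, 26.3 and 25.9 CPM in Huh7, and fell, at -0.51 ± 0.11 (adjusted p = 0.00673) in the HepG2 cells and -0.34 ± 0.072 (adjusted p = 0.00116) in Huh7 on the log2 scale.

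In Huh7, DDX11, the cohesion helicase, rose by 0.65 and DHX34 by 0.49, while DDX43, a cancer-testis gene, fell at -1.18 and DDX59 fell at -0.46 (log2). DDX53, also a cancer-testis gene, stood under 1.3 CPM and did not pass. DDX11 shares 40.8% of its 50-base words with other genes. DDX59 was the single member with an interaction called in the other direction, its response being lower in Huh7, -0.68 ± 0.15 (adjusted p = 0.00637).

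Over all members the interaction test, Huh7 response minus HepG2 response, called 18 of 47 (38.3%, against 21.5% of all 15668 genes and 26.2% of protein-coding genes). Of the 18, 17 were higher in Huh7 and 1 lower (11.7% and 9.88% of all genes). By role, 8 of the 18 belonged to ribosome biogenesis and 5 to the spliceosome (DDX39A, DDX41, DDX42, DHX15 and DHX16). Among helicases of export and translation none of 6 was called. Among 17 alternatives the call was lost in 12 for DDX51, in 8 for DDX52, in 6 each for DHX15 and DHX16, in 5 for DDX28 and in 2 for DHX9, nearly all of them fits without 1 library, with adjusted p up to 0.104.

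**Figure D5:**
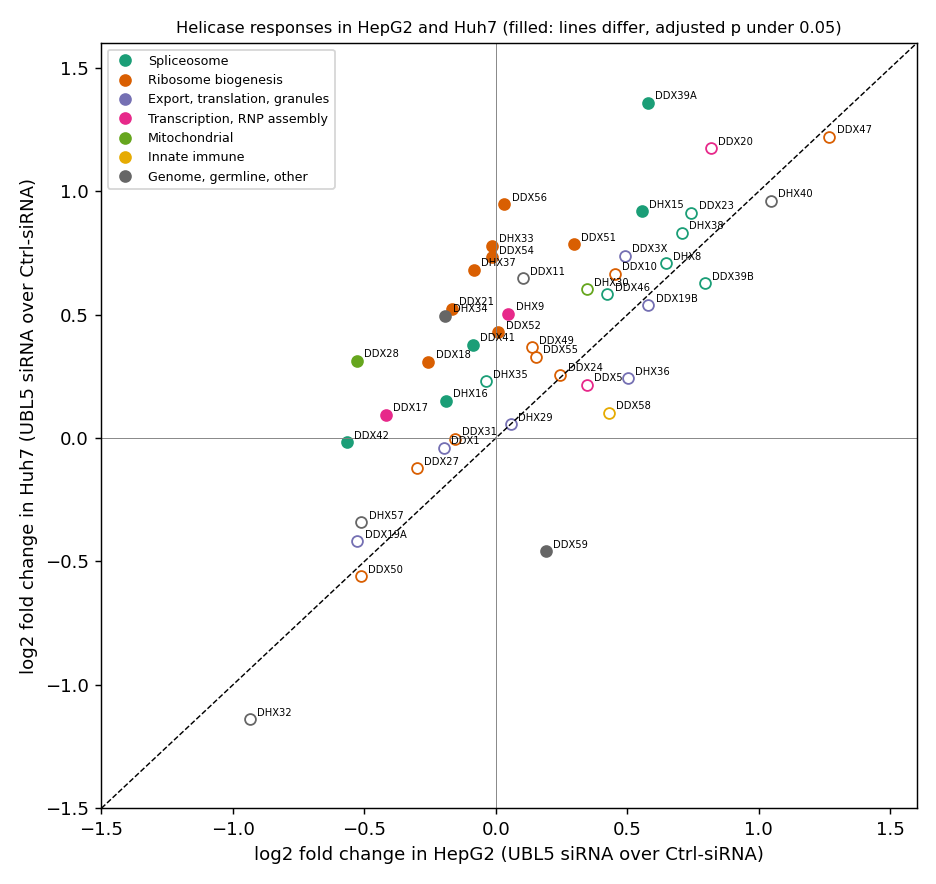
Log2 fold change in HepG2 (x axis) against Huh7 (y axis) of the 46 helicase genes tested in both lines, colored by role, filled where the interaction test was called; the dashed line marks equal change. All filled points but DDX59 lie above the dashed line.

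By motif II, beside 16.5% of all genes that rose and 20.1% that fell, in HepG2 9 of 23 genes with DEAD rose and 5 fell, 4 of 8 with DEAH rose and 0 fell, 2 of 8 with another DExH rose and 2 fell, and 2 of 5 with another DExD rose and 1 fell. In Huh7, where 34.9% of all genes rose and 36.4% fell, all 8 DEAH genes rose, with a median log2 fold change of 0.74, and 17 of 25 DEAD genes rose and 3 fell, with a median of 0.37. The DEAH genes are DHX8, DHX15, DHX16, DHX33, DHX35, DHX37, DHX38 and DHX40, of which 5 are spliceosome helicases, so motif and role overlap.

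Other RNA helicases outside the DDX and DHX symbols were read beside the members. Of 18 tested in HepG2, 4 rose and 2 fell (33.3%, against 36.7% of all genes), and of 19 in Huh7, 9 rose and 5 fell (73.7%, against 71.3%). These shares called in either direction were near those of all genes. By direction, 16.5% of all genes rose and 20.1% fell in HepG2, and 34.9% rose and 36.4% fell in Huh7. EIF4A1, the helicase of the cap-binding complex and itself a DEAD box protein, rose from 4.51 ± 0.138 to 29.9 ± 7.88 CPM in HepG2 (log2 2.73 ± 0.21 (adjusted p = 0.000102)) and from 7.06 ± 0.95 to 57.6 ± 4.03 CPM in Huh7 (log2 3.03 ± 0.10 (adjusted p = 7.98e-10)), while 47.4% of its exon bases lie in another annotated gene on the same strand and its paralog EIF4A2 stood at 438 ± 27.9 CPM in HepG2 controls. Whether reads in that overlap were counted is not given in the sources used here, so the level and the rise of EIF4A1 describe only the reads assigned to it. EIF4A3, of the exon junction complex, rose by 0.57 ± 0.10 (adjusted p = 0.00232) and 0.77 ± 0.054 (adjusted p = 1.84e-07). YTHDC2, a meiotic m6A reader, fell, at -0.73 ± 0.11 (adjusted p = 0.00119) in the HepG2 cells and -0.31 ± 0.062 (adjusted p = 0.000897) in Huh7 on the log2 scale.

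Proteins that partner with DDX and DHX helicases were a further list of 31. Of 30 tested in each line, 8 rose and 6 fell in HepG2 (46.7%, against 36.7% of all genes and 43% of protein-coding genes) and 17 rose and 5 fell in Huh7 (73.3%, against 71.3% and 76.1%). Only the share called in either direction was near the background in Huh7. Of all genes there, 34.9% rose and 36.4% fell, so the cofactors leaned upward in Huh7, as the members did. Their median log2 fold change was -0.010 in HepG2 and 0.25 in Huh7. ALYREF, the export adaptor bound by DDX39B and DDX39A, rose from 80.7 ± 6.5 to 209.8 ± 14.1 CPM in HepG2 (log2 1.38 ± 0.095 (adjusted p = 7.13e-05)) and from 41.7 ± 2.94 to 133 ± 6.2 CPM in Huh7 (log2 1.67 ± 0.062 (adjusted p = 1.86e-09)). The THO subunits on the list, also partners of DDX39B, did not all follow. In HepG2 THOC6 fell, -0.63 ± 0.13 (adjusted p = 0.00562), and THOC1, THOC2, THOC3, THOC5 and THOC7 did not pass. In Huh7 THOC1, THOC3, THOC5 and THOC7 rose, from 0.24 for THOC1 to 0.71 for THOC5, and THOC2 and THOC6 did not pass. PINX1, a G-patch partner of DHX15, fell, at -1.29 ± 0.18 (adjusted p = 0.000858) in the HepG2 cells and -1.12 ± 0.13 (adjusted p = 9.57e-06) in Huh7 on the log2 scale. ZBTB8OS, known as archease and a partner of the tRNA ligase complex that holds DDX1, fell, at -0.88 ± 0.12 (adjusted p = 0.000702) in the HepG2 cells and -0.97 ± 0.093 (adjusted p = 2.18e-06) in Huh7 on the log2 scale. Members of that complex on the list did not fall. FAM98B rose in both lines, by 0.74 ± 0.11 and 0.56 ± 0.067. RTCB rose in Huh7 by 0.36 ± 0.047 and did not pass in HepG2, and RTRAF passed in neither line.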

How the data were processed

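Poly(A) RNA of 12 libraries, 3 per group, was sequenced from HepG2 and Huh7 cells, 52 h after transfection by the time in the labels. Per the labels, the authors aligned reads to GRCh38 with STAR 2.7.6a and counted them with featureCounts, and the deposited values used here are raw counts per gene; the annotation, strand setting and filter on low counts are not given in the sources used here. The deposited tables also hold the authors' own comparison: a p-value, log2 fold change, and a score (mean of normalized counts and test statistic) per gene. These columns were not used.

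Counts were analysed in R 4.3.3 with edgeR 4.0.16 (filterByExpr, min.count 10, min.total.count 15; TMM; quasi-likelihood F test; Benjamini-Hochberg over all genes tested; threshold 0.05). Each line was fitted by itself, 3 libraries against 3. The difference between lines, and between their Ctrl-siRNA groups, came from 1 fit over the 12 libraries, restricted to genes listed in both lines. The SE is the size of the log2 fold change over the square root of F. Levels are CPM, and levels of different genes are compared per kb of exon (GENCODE, GRCh38). Coding sequences were aligned with Biopython 1.88 in Python 3.11.15, and DESeq2 1.42.0 was an alternative. The test was checked on simulated counts. No pair of libraries was a duplicate. The 19469574 to 29744471 counts per library set the precision, which covers counting and library spread only.

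The members and role lists were chosen with earlier results of these data known. Values in every library are given for the members of each role list with the smallest adjusted p in both lines (3, or 2 in lists under 5), for the paralog pairs, and for the 4 members with the smallest interaction p; for other lists, the 3 genes with the smallest p in both lines are named. Further genes of those lists are named where they share a complex or role with a gene already given. Alternatives were other scalings, DESeq2, no filter, each library left out, 1 fit for all libraries, and the replicate number as a block; leaving out both HepG2 libraries numbered 3 was added after the data were seen. As to pairing, deviations from the group means in same-numbered HepG2 libraries correlated at 0.124, 0.11 and 0.0729 over all tested genes, and at 0.408, 0.319 and 0.336 over the 9405 genes of mean 10 CPM or more, so blocked values stand beside HepG2 results whose call they change.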

Additional observations from a re-analysis of the deposited data

Results flagged for a closer look

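For 18 of 47 helicase genes the response to UBL5 siRNA differed between HepG2 and Huh7 by the interaction test of edgeR (adjusted p under 0.05 over 15668 genes). Values are the log2 response in Huh7 minus that in HepG2, from 3 libraries per group. Among ribosome biogenesis helicases the difference was 0.89 for DDX56, 0.76 for DHX33, 0.74 for DHX37, 0.72 for DDX54, 0.66 for DDX21, 0.54 for DDX18, 0.46 for DDX51 and 0.39 for DDX52. Among spliceosome helicases it was 0.75 for DDX39A, 0.52 for DDX42, 0.44 for DDX41, 0.34 for DHX15 and 0.31 for DHX16. Outside these groups it was 0.81 for DDX28 of the mitochondria, 0.66 for DHX34 of nonsense-mediated decay, 0.48 for DDX17 and 0.43 for DHX9. DDX59 alone had a value below 0, -0.68. The adjusted p ranged from 7.24e-05 for DDX56 to 0.0481 for DDX51, whose call was lost in 12 of 17 alternatives. Without a replicate block, DDX18 was also the only member called in opposite directions in the lines. Its HepG2 call was lost in 8 of 13 alternatives. With the replicate block, DDX28 was called lower in HepG2 (-0.57, adjusted p = 0.0202) and DDX17 higher in Huh7 (0.093, adjusted p = 0.0293). Both were then called in opposite directions as well. The spread between libraries was larger in HepG2, with a biological coefficient of variation of 0.189 against 0.0663 in Huh7, and its part in these differences was not tested.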

How the results depend on the processing

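Among 47 members tested in HepG2, 17 rose and 9 fell; other settings gave 16 to 19 and 8 to 11, and leaving out 1 library 13 to 17 and 6 to 9. Leaving out both libraries numbered 3, chosen after seeing the data, gave 17 and 8. Ribosome biogenesis helicases that rose in HepG2 numbered 1 to 2 without 1 library, against 3. All genes called in HepG2 numbered 3819 to 7270 without 1 library, against 5780. In Huh7 34 rose and 8 fell, with 34 to 35 and 8 to 9 without 1 library and 30 and 6 of 47 in a fit over all libraries, and the median log2 fold change of the members was 0.32 with total-count scaling. The difference between the lines was called higher in Huh7 for 17 genes, and for 11 to 20 without 1 library; the 11 came without Huh7 UBL5 siRNA 1. With the replicate block, 17 rose and 11 fell in HepG2, 35 and 9 in Huh7, and 19 and 1 in the difference between the lines; DDX17 and DDX27 became called in Huh7 (adjusted p = 0.0293 and 0.0207). In Huh7 the same-numbered libraries correlated at 0.161, 0.0155 and 0.212 over all tested genes and at 0.437, 0.0625 and 0.567 over the 9829 genes of mean 10 CPM or more; the libraries numbered 2 stayed under 0.1 in both, so the numbers were not taken as pairs there, although the other two did deviate together.

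Small values that had not passed the test changed sign. In HepG2 DDX54 was 0.0102 with RLE scaling, 0.0066 without the filter, 0.0101 with DESeq2 and 0.15 without the libraries numbered 3, and -0.12 to 0.14 without 1 library. DHX33 was 0.014 with RLE scaling, 0.0084 without the filter, 0.014 with DESeq2 and -0.12 to 0.077 without 1 library. With total-count scaling DDX52 was -0.0405, DDX56 -0.017 and DHX9 -0.0022. Without the libraries numbered 3, DDX52 was -0.042 and DHX37 0.0057. Without 1 library the ranges were -0.065 to 0.074 for DDX52, -0.0059 to 0.065 for DDX56, -0.028 to 0.13 for DHX9 and -0.15 to 0.075 for DHX37, and in Huh7 -0.0395 to 0.012 for DDX42. The shift of the DDX60 over DDX60L ratio was -0.028 to 0.39. The cause of these changes was not tested. No called direction reversed under any alternative run. At 3 libraries per group, DDX53 and DDX60 had the fewest counts, 6 to 26 and 4 to 35 per Huh7 library, which limits what their values can show.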

Other observations

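Cofactors of the helicases, named here after their values were seen, were also called in several cases. The 7 listed G-patch partners of DHX15 did not move as one: ZGPAT rose by 1.11 ± 0.20 (adjusted p = 0.00319) and 1.10 ± 0.13 (adjusted p = 1.05e-05), NKRF rose by 0.92 ± 0.14 (adjusted p = 0.00119) and 1.11 ± 0.11 (adjusted p = 3.24e-06) (log2 by edgeR, HepG2 first), TFIP11 by 0.38 ± 0.10 (adjusted p = 0.0149) and 0.49 ± 0.053 (adjusted p = 6.92e-06), and SUGP1 by 0.41 ± 0.13 (adjusted p = 0.0427) and 0.48 ± 0.057 (adjusted p = 1.41e-05), while PINX1 fell in both. For ZGPAT, 45.4% of the exon bases lie in another annotated gene on the same strand. Its Ctrl-siRNA mean was 5.4 CPM in HepG2 and 8.1 CPM in Huh7, and its values describe only the reads assigned to it. CMTR1 fell in HepG2, -0.39 ± 0.13 (adjusted p = 0.0468), and did not pass in Huh7, and RBM5 rose in Huh7, 0.21 ± 0.049 (adjusted p = 0.00214), and did not pass in HepG2. GPATCH1, a partner of DHX35, rose by 0.41 ± 0.14 (adjusted p = 0.0486) and 0.62 ± 0.062 (adjusted p = 3.19e-06), and GPKOW, a partner of DHX16, by 0.42 ± 0.12 (adjusted p = 0.0283) and 0.30 ± 0.047 (adjusted p = 0.000131). GLE1, which activates the DDX19 helicases at the nuclear pore, fell from 64.9 ± 1.05 to 44 ± 3.28 CPM in HepG2 and from 84.2 ± 1.96 to 65.4 ± 3.33 CPM in Huh7 (log2 -0.56 ± 0.094 (adjusted p = 0.00216) and -0.36 ± 0.053 (adjusted p = 7.54e-05)), beside the fall of DDX19A and the rise of DDX19B. The nuclear pore proteins on the same list did not all follow. NUP214 passed in neither line, and NUP42 fell in HepG2, -0.59 ± 0.14 (adjusted p = 0.0102), but did not pass in Huh7, at -0.028.

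In the SMN complex that holds DDX20, GEMIN4 and GEMIN5 rose in Huh7, by 0.62 ± 0.064 (adjusted p = 4.51e-06) and 0.49 ± 0.07 (adjusted p = 5.77e-05), whereas GEMIN7 and GEMIN8 fell there, at -0.78 ± 0.22 (adjusted p = 0.00656) and -0.54 ± 0.091 (adjusted p = 0.000212). None of these 4 passed the test in HepG2, and GEMIN2 and GEMIN6 passed in neither line. GEMIN7 was low in Huh7, at 2.09 ± 0.305 CPM in Ctrl-siRNA and 1.22 ± 0.228 CPM in UBL5 siRNA libraries. IFIH1, a viral RNA sensor related to DDX58 and DHX58, fell in both lines, at -0.51 ± 0.17 (adjusted p = 0.0401) and -2.30 ± 0.23 (adjusted p = 3.08e-06). It went from 16.6 ± 2.2 to 11.6 ± 1.82 CPM in HepG2. In Huh7 its level was low, 3.19 ± 0.402 CPM in Ctrl-siRNA and 0.642 ± 0.168 CPM in UBL5 siRNA libraries.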
